A study of Mus musculus with 18 samples.

Results

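The collagen genes of the adult mouse kidney were followed over 3 genotypes in polyA RNA-seq of whole tissue. Members were all protein-coding genes of the deposited table whose symbol has the form of a collagen chain (Col, a number, the letter a, a number), apart from Col6a1, Col6a2 and Col18a1. The rule gave 41 genes of 55385 in the table, and 32 of them had enough reads to be tested, of 17575 genes tested in all. The 18 kidneys came from wild-type C57BL/6J mice, from Dp16 mice, which carry a duplication of the mouse chromosome 16 segment that corresponds to human chromosome 21, and from Dp16 2xIFNRs mice, which carry the same duplication with the dosage of the interferon receptor genes returned to normal. Each genotype had 6 animals, 3 male and 3 female, aged 17.1 to 18.0 weeks and with no treatment listed. Whether animals of different genotypes shared litters is not given in the sources used here, and p-values measure the spread between these animals. The last number of the sample description is the same in 7 pairs of animals of different genotypes. What it stands for is not given, and the main fit took no account of it. None of the members lies on the duplicated segment. Col8a1, on chromosome 16 (57624258 to 57754737, GRCm38), lies before its first base at 75540514.

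Collagens are matrix and membrane proteins of 3 chains wound into a triple helix, in which each chain is the product of 1 gene and the chains of a helix can be alike or come from different genes. Fibrillar collagens such as types I, III and V bear the tension in the interstitium and accumulate in kidney scarring. Type IV chains form the sheet-like network of basement membranes: α1 and α2 chains occur in basement membranes throughout the kidney, while α3, α4 and α5 chains form the mature glomerular basement membrane and are the chains affected in Alport syndrome. Beaded filament (type VI), FACIT (chains that decorate fibrils), network, anchoring fibril, transmembrane and multiplexin collagens link these structures to each other and to cells.

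Between 42157790 and 57814587 counted reads per library lay in genes. The receptor genes behind the genotype names followed the labels: Ifnar1, a chain of the type I interferon receptor, stood at 28.6 to 37.1 CPM (counts scaled to a common library size with TMM factors) in wild-type, at 42.9 to 58.0 in Dp16 and at 34.7 to 41.0 in Dp16 2xIFNRs kidneys. Adrenal cortex markers summed to 81.4 CPM in the wild-type female replicate 5 and to at most 9.96 CPM in the other libraries, and skeletal muscle markers to at most 1.23 CPM. Without that library the members called in Dp16 were Col14a1 and Col15a1 (higher) and Col27a1 (lower), those called in Dp16 2xIFNRs were again Col15a1 and Col6a6, and 12 in place of 15 were lower in males. Since these are bulk samples, fewer cells of a type and less RNA per cell cannot be told apart.

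Levels between genes were compared by the deposited RPKM values, which divide reads by gene length. Type IV chains led: the 6 basement membrane genes took a mean of 65.0% of the summed collagen RPKM of a kidney (range over 18 kidneys 55.1% to 73.4%), and the 11 fibrillar genes 21.9% (14.7% to 31.5%). Col4a1, one of the pair of ubiquitous type IV chains, was the most abundant member at a mean of 47.3 RPKM (30.7 to 60.1). Its partner Col4a2 followed at 32.0 RPKM (20.3 to 38.9) and was below Col4a1 in 18 of 18 kidneys. The glomerular chains Col4a3 and Col4a4 came next, at 26.3 and 21.9 RPKM, and Col4a3 was the higher of the pair in 14 of 18 kidneys. The third chain of the same network, Col4a5, reached only 5.14 RPKM (4.27 to 6.23), and Col4a6 0.40 RPKM.

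**Figure D1:**
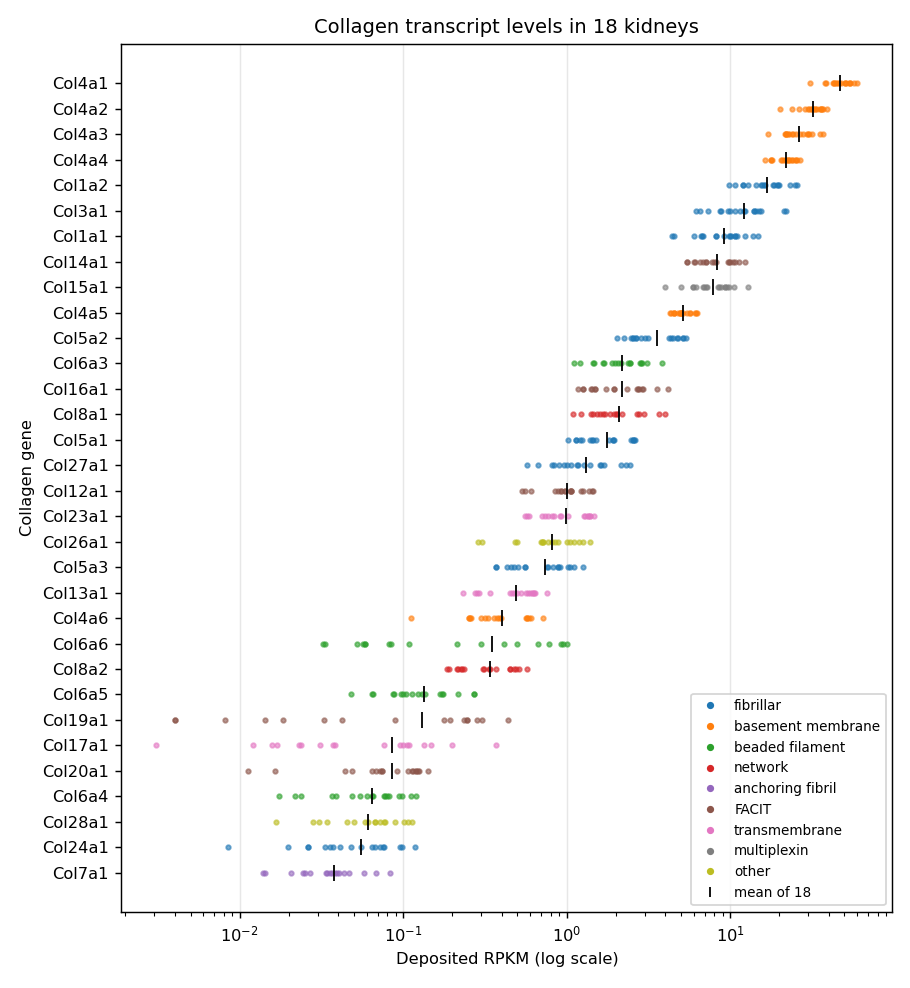
Deposited RPKM (horizontal, log scale) of the 32 tested collagen genes, ordered by mean, with 1 point per kidney coloured by collagen class and a black tick at the mean of 18. Libraries at 0 (2 for Col19a1 and 1 for Col28a1) cannot be drawn on this scale; Col4a1 to Col4a4 stand above every other member by their means, and Col6a6, Col19a1 and Col17a1 spread widest.

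Among the fibrillar genes the chains of types I and III were far above the rest. Col1a2 had a mean of 16.9 RPKM (9.90 to 25.7), Col3a1 12.2 RPKM (6.14 to 22.1) and Col1a1 9.12 RPKM (4.43 to 14.8), in that order in 18 of 18 kidneys for both neighbouring pairs. Type I collagen is assembled from Col1a1 and Col1a2 chains, and the ratio of Col1a1 to Col1a2 RPKM was 0.53 ± 0.06 (SD, n = 18). Next were Col14a1, a FACIT chain on the surface of fibrils, at 8.27 RPKM and Col15a1, a multiplexin of the basement membrane zone, at 7.91 RPKM. These neighbours in the order overlapped: Col1a1 exceeded Col14a1 in 11 of 18 kidneys and Col14a1 exceeded Col15a1 in 12. Col5a2 (3.58 RPKM), Col6a3 (2.19), Col16a1 (2.17) and Col8a1 (2.10) formed the next tier by mean RPKM. All other members tested were below 2 RPKM on average, down to Col7a1, the anchoring fibril chain of skin, at 0.04 RPKM.

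The 9 members that did not pass the filter on low counts are best known from cartilage and other tissues: Col2a1, Col9a1, Col9a2, Col9a3, Col10a1, Col11a1, Col11a2, Col22a1 and Col25a1. No library held more than 18 reads of any of these, the maximum being in Col25a1, a transmembrane collagen. Col10a1, the chain of hypertrophic cartilage, was at 0 reads in 16 libraries and Col9a1 in 15. Acan and Ibsp, also cartilage and bone genes, belong to a marker list that summed to at most 4.30 CPM in any kidney.

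The type IV genes lie in head-to-head pairs, a layout in which neighbouring genes start close together and are read in opposite directions. In GRCm38 the starts of Col4a1 (chromosome 8, 11198423 to 11312826, minus strand) and Col4a2 (11312805 to 11449287, plus strand) are 21 bases apart, so that their first exons overlap. Col4a4 (chromosome 1, 82448423 to 82586849, minus strand) and Col4a3 (82586921 to 82722059, plus strand) start 72 bases apart, and Col4a5 and Col4a6 on chromosome X 1309 bases apart. Shown are the 71 bases between the starts of Col4a4 and Col4a3 (chr1:82586850-82586920, minus strand), the members whose balance differed between the sexes, and the 250 bases before the RefSeq starts of Col15a1 (chr4:47207762-47208011, plus strand) and Col3a1 (chr1:45311288-45311537, plus strand), the members that rose in Dp16. The sequences are from RefSeq (GRCm38.p6), 5′ to 3′, and capitals mark matches to the motifs searched.
Col4a4 to Col4a3: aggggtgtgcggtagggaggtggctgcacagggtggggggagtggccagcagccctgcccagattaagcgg
Col15a1: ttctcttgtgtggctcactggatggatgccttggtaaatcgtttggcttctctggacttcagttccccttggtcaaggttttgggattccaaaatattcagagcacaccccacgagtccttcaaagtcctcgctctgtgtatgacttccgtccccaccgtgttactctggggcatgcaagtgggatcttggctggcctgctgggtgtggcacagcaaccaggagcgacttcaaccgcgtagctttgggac
Col3a1: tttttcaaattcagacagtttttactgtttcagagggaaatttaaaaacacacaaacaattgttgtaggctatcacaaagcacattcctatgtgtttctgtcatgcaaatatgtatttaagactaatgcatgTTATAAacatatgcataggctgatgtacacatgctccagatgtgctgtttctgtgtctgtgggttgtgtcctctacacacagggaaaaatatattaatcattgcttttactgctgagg
Searched on both strands were TATAA and, beside it, CCAAT and also GGGCGG, the 9-letter TTCNNNGAA that STAT factors can bind, and the 9-letter GAAANNGAA found in interferon response elements. Only TATAA was found, in the Col3a1 window, as a pair of overlapping matches on opposite strands that starts 118 bases before the gene. Of the 32851 windows of 250 bases in the table, 22.8% held TATAA, 33.8% held CCAAT, 32.7% held GGGCGG, 7.02% held TTCNNNGAA and 7.13% held GAAANNGAA. Promoter sequences matched 32 of the 41 members, with 33 windows, and of these GGGCGG was in 19, CCAAT in 12, TATAA in 7, GAAANNGAA in 3 and TTCNNNGAA in 2. A match is a description of letters and not a shown binding site. RefSeq starts Col15a1 upstream of the GENCODE start at 47208161.

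In Dp16 kidneys 2 of 32 collagen genes were higher than in wild-type and 0 lower, by edgeR's quasi-likelihood test at an adjusted p under 0.05 over all genes. In the same comparison 3.08% of the 17575 genes tested were called higher and 1.01% lower, so the members' share is near the background. At an unadjusted p under 0.05 there were 11 of the 32 members, beside 2973 of the 17575 genes tested. By their fitted folds 22 of the 32 lay above 0 and 10 below, with a median log2 fold of 0.15 beside −0.01 over all genes tested.

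Col15a1, whose product lies between basement membranes and the interstitium, ranged from 25.6 CPM through a median of 37.3 to 50.1 CPM in wild-type kidneys, and from 44.1 through 54.2 to 55.9 CPM in Dp16 kidneys. All 6 Dp16 animals were above the wild-type mean and 4 were above the highest wild-type animal, the female replicate 5, so the groups overlapped little. The log2 fold was 0.49 ± 0.11 (SE; 1.40-fold, adjusted p = 0.0106, n = 6 per group). Within each sex every Dp16 animal was above every wild-type animal. For this and every separation of animals by genotype or sex given below, the share over all genes was not computed. The call rests on modelling sex: without sex in the fit the log2 fold was 0.48 with an adjusted p of 0.156.

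Col3a1, the chain of type III collagen, ranged from 36.2 through 51.7 to 65.5 CPM in wild-type kidneys and from 50.6 through 74.9 to 118 CPM in Dp16 kidneys. The lower Dp16 values fell within the wild-type range and 4 of 6 lay above it, with the Dp16 female replicate 3 highest. Its log2 fold was 0.62 ± 0.17 (1.54-fold, adjusted p = 0.0486). This call sat at the threshold: it was lost on leaving out any one of wild-type replicates 1, 2, 4, 5 or 6, Dp16 replicates 1, 3 or 5, or Dp16 2xIFNRs replicates 1, 2, 4 or 6, with adjusted p between 0.0566 and 0.133 and log2 folds of 0.52 to 0.65.

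Col1a1, the α1 chain of type I collagen, went from 27.8 through 40.9 to 58.6 CPM in wild-type kidneys and from 40.5 through 57.8 to 84.7 CPM in Dp16 kidneys. Its log2 fold of 0.52 ± 0.19 did not pass the test (adjusted p = 0.138). Col1a2 had a log2 fold of 0.32 ± 0.12 (adjusted p = 0.138) and Col5a3, a minor fibril chain, 0.67 ± 0.27 (adjusted p = 0.195). Of the 8 tested fibrillar genes 7 had a fitted fold above 0 in Dp16, with a median log2 fold of 0.31, and 1 passed the test.

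**Figure D2:**
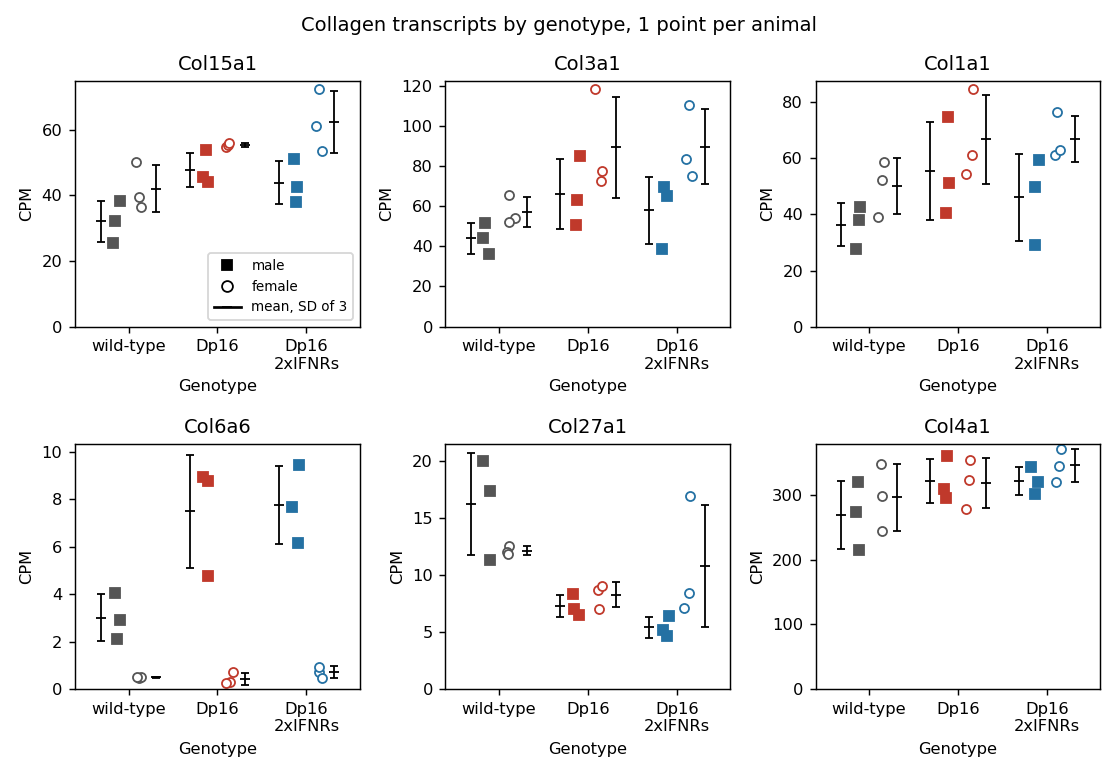
TMM-scaled CPM (vertical, from 0) of 6 collagen genes by genotype, with 1 point per animal (squares male, open circles female) and the mean with SD of the 3 animals of each sex. Col15a1 is higher in both duplicated genotypes, the Col6a6 points split by sex in every genotype, and the Col27a1 values of all 6 Dp16 animals (6.47 to 9.07 CPM) sit below those of all wild-type animals (11.3 to 20.0 CPM).

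Dp16 2xIFNRs kidneys likewise had 2 members higher than wild-type and 0 lower, where 3.15% of all genes were called higher and 1.58% lower. At an unadjusted p under 0.05 there were 10 of the 32 members, beside 3182 of the 17575 genes tested. The median log2 fold of the 32 members was 0.25 beside 0.01 over all genes tested, with 26 above 0 and 6 below.

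Col15a1 was again called: its values ran from 38.1 through 52.3 to 72.5 CPM, 4 of 6 above the wild-type maximum. The log2 fold was 0.51 ± 0.11 (1.43-fold, adjusted p = 0.00683). Without sex in the fit the adjusted p was 0.110. This comparison and the one of Dp16 share the same 6 wild-type animals.

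Col6a6, a chain that can join Col6a1 and Col6a2 products in type VI collagen, was the other member called, at a log2 fold of 1.02 ± 0.29 (2.03-fold, adjusted p = 0.0481). Its 3 wild-type males stood at 2.10 to 4.05 CPM, the 3 Dp16 2xIFNRs males at 6.17 to 9.44 CPM and the 3 Dp16 males at 4.76 to 8.92 CPM. Females of the same genotypes stood at 0.463 to 0.517, 0.484 to 0.955 and 0.285 to 0.719 CPM. All males of both duplicated genotypes were thus above all wild-type males, as for Col4a6 and Col23a1. The Col6a6 females of the 3 genotypes overlapped. Whether the genotype difference depends on sex did not pass its own test (Dp16 2xIFNRs, log2 difference of males and females 0.83, adjusted p = 1.00; Dp16, 1.53, adjusted p = 0.626). The call was lost on leaving out any one of wild-type replicates 1, 2, 3 or 4, Dp16 2xIFNRs replicates 1, 2, 3, 4 or 6, or Dp16 replicates 3 or 5, with adjusted p of 0.0561 to 0.149. In Dp16 the log2 fold of Col6a6 was 0.74 ± 0.29 (adjusted p = 0.176).

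Fibrillar chains in Dp16 2xIFNRs had fitted folds close to those in Dp16 without passing the test. Col3a1 stood at 38.7 through 72.3 to 111 CPM, with a log2 fold of 0.53 ± 0.17 (adjusted p = 0.0904). For Col1a1 the values were 28.9 through 60.4 to 76.5 CPM and the log2 fold 0.38 ± 0.19 (adjusted p = 0.287). The lowest value of both genes in this group was that of the male replicate 3. Without that library 4 members were called higher than wild-type: Col12a1, Col15a1, Col1a2 and Col3a1.

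**Figure D3:**
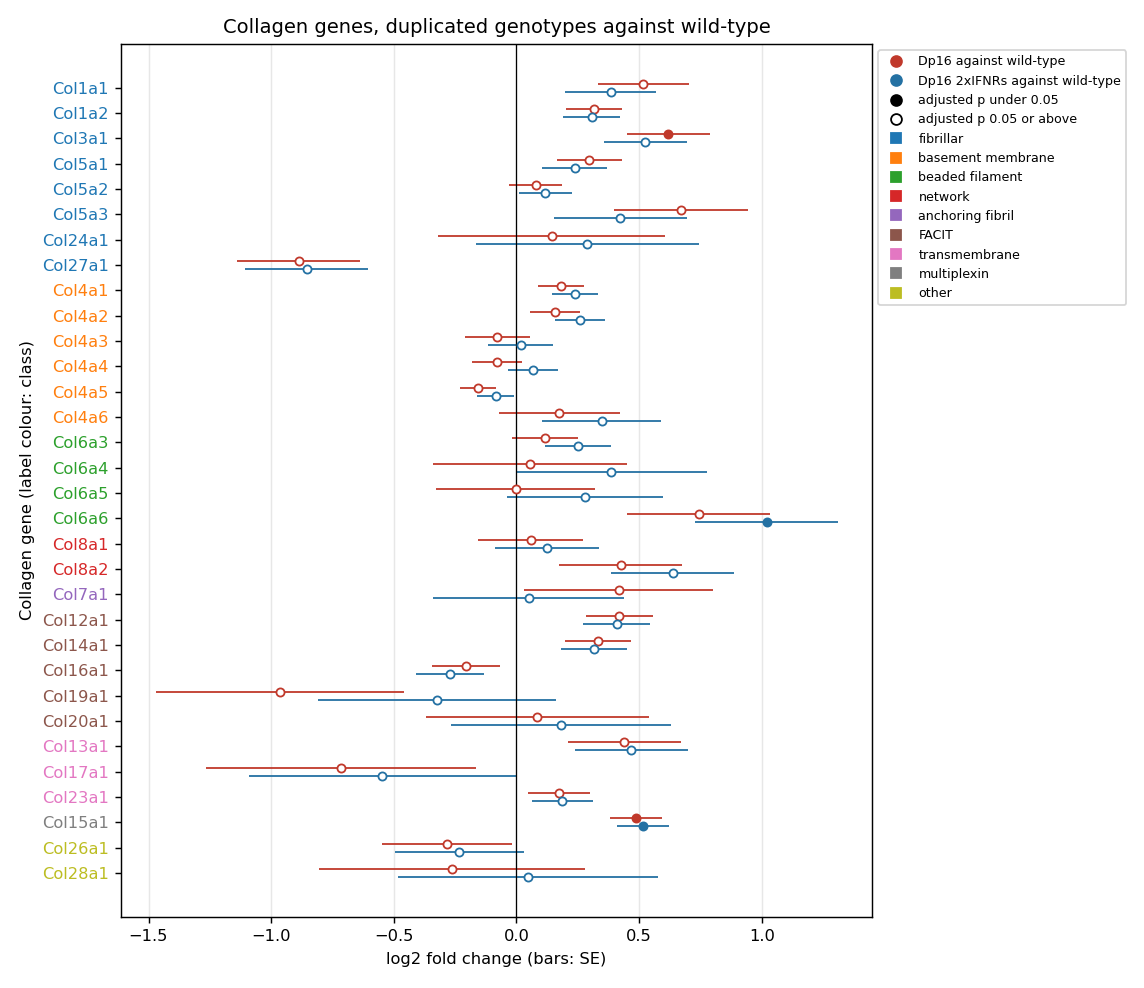
Log2 fold change against wild-type (horizontal; bars are SE) of the 32 tested collagen genes in Dp16 (red) and Dp16 2xIFNRs (blue), with gene labels coloured by class and filled points for an adjusted p under 0.05. Filled points are Col3a1 and Col15a1 in Dp16 and Col6a6 and Col15a1 in Dp16 2xIFNRs, and Col27a1 lies near −0.9 in both.

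Compared directly, Dp16 2xIFNRs and Dp16 differed in 0 of 32 collagen genes in either direction, with 0% of all genes called higher and 0.0171% lower. The edgeR test gave 0 members even at an unadjusted p under 0.05, where 809 of 17575 genes passed, and DESeq2 also called 0 members. For Col15a1 the log2 difference was 0.03 with a 95% interval of −0.18 to 0.23, and for Col3a1 −0.09 with −0.42 to 0.24. For Col6a6 it was 0.28 with −0.26 to 0.81, and for Col4a1 0.06 with −0.13 to 0.24. These intervals do not show that the 2 genotypes are alike for each gene.

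Col27a1, a fibrillar collagen with a shortened helix, went the other way, and it is described here because of its values, outside the rule by which members were named. Wild-type kidneys held 11.3 through 12.3 to 20.0 CPM, Dp16 kidneys 6.47 through 7.69 to 9.07 CPM and Dp16 2xIFNRs kidneys 4.67 through 6.75 to 16.9 CPM. No Dp16 value overlapped with wild-type, and in Dp16 2xIFNRs only the female replicate 4, at 16.9 CPM, fell in the wild-type range. The log2 folds were −0.89 ± 0.25 in Dp16 (adjusted p = 0.0535) and −0.86 ± 0.25 in Dp16 2xIFNRs (adjusted p = 0.0617), just short of the threshold in each. Leaving out Dp16 2xIFNRs replicate 4 gave −0.87 with an adjusted p of 0.00358 in Dp16 and −1.16 with 0.000758 in Dp16 2xIFNRs. Leaving out wild-type replicate 5 or Dp16 2xIFNRs replicate 3 also brought the Dp16 value under the threshold, at 0.0472 and 0.0456, as did DESeq2 for both genotypes (0.0168 and 0.0200). Of the 29 alternatives run for each genotype, 20 in Dp16 and 22 in Dp16 2xIFNRs left Col27a1 uncalled, with adjusted p up to 0.123 and 0.154. By sex, the difference of mean log2 CPM from wild-type was −1.12 in males and −0.56 in females of Dp16, and −1.55 in males and −0.27 in females of Dp16 2xIFNRs. The interaction with sex in Dp16 2xIFNRs had a log2 size of −1.41 and did not pass the edgeR test (adjusted p = 0.557).

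Basement membrane chains gave no call between genotypes. The log2 folds of the 6 type IV genes lay between −0.16 and 0.18 in Dp16, with a median of 0.04, and between −0.09 and 0.35 in Dp16 2xIFNRs, with a median of 0.15. Col4a1 stood at 215 through 285 to 347 CPM in wild-type, 278 through 316 to 360 in Dp16 and 300 through 332 to 371 in Dp16 2xIFNRs. The 3 ranges overlapped, and the log2 folds were 0.18 ± 0.09 (adjusted p = 0.348) and 0.24 ± 0.09 (adjusted p = 0.164). Col4a2 behaved much like its partner, with 0.16 ± 0.10 (adjusted p = 0.483) and 0.26 ± 0.10 (adjusted p = 0.166). Col4a3, with medians of 226, 203 and 228 CPM, and Col4a4, with 220, 230 and 229 CPM, had log2 folds between −0.08 and 0.07. Col4a5 was at 29.7 to 39.6 CPM in wild-type and 28.7 to 34.7 in Dp16, a log2 fold of −0.16 ± 0.07 (adjusted p = 0.284). The largest fitted fold of the class belonged to its scarcest member, Col4a6, at 0.35 ± 0.24 in Dp16 2xIFNRs (adjusted p = 0.491). By sex, the difference of its mean log2 CPM from wild-type was 0.84 in males and −0.48 in females of Dp16. In Dp16 2xIFNRs it was 0.59 in males and 0.23 in females. All 3 males of each duplicated genotype were above all 3 wild-type males, as they were for Col6a6 and Col23a1. How many of all genes separate in this way was not computed. The interaction of Col4a6 with sex in Dp16 had a log2 size of 1.21 and did not pass the edgeR test (adjusted p = 0.632).

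The other classes gave no further call between genotypes. Among FACIT chains Col12a1, which bridges fibrils, came nearest, at 6.87 through 10.5 to 12.5 CPM in wild-type and 11.5 through 12.8 to 15.6 CPM in Dp16, a log2 fold of 0.42 ± 0.14 (adjusted p = 0.0886). Col14a1 had 0.33 ± 0.13 (adjusted p = 0.192) and Col16a1 −0.21 ± 0.14 (adjusted p = 0.503). In the network class Col8a2, a chain of vessel and corneal membranes, had a log2 fold of 0.64 ± 0.25 in Dp16 2xIFNRs (adjusted p = 0.163), and Col8a1 0.12 ± 0.21 (adjusted p = 0.815). Col6a3, a type VI collagen chain, was at 12.7 to 32.6 CPM in wild-type and 16.4 to 29.0 in Dp16, which lies inside that range. Col13a1, Col17a1 and Col23a1, the tested transmembrane collagens, Col7a1, Col26a1 and Col28a1 each overlapped between the genotypes, with adjusted p of at least 0.287. Of these scarce members, Col13a1 ranged from 0.725 to 1.64 CPM in wild-type, 0.944 to 2.26 in Dp16 and 0.939 to 2.00 in Dp16 2xIFNRs, and 5 of the 6 Dp16 2xIFNRs values lay above the wild-type range. Col8a2 ranged from 0.852 to 1.55 CPM in wild-type and 0.888 to 2.22 in Dp16 2xIFNRs, and Col7a1 from 0.224 to 0.426 in wild-type and 0.123 to 0.721 in Dp16. Col24a1, a fibrillar chain, ranged from 0.148 to 0.571 CPM in wild-type and 0.0569 to 0.863 in Dp16, and the FACIT chain Col20a1 from 0.0617 to 0.700 and 0.0820 to 0.652. Col28a1 did not exceed 0.466 CPM and Col6a4 did not exceed 0.939 CPM in any kidney. Col5a1, Col5a2, Col19a1, Col20a1, Col24a1, Col6a4 and Col6a5 were not called between genotypes either.

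More collagen genes were called by sex than by genotype, as was so over all genes. The sex comparison had 9 against 9 animals and each genotype comparison 6 against 6. Of the 32 members 15 were lower and 4 higher in males, where 19.7% of all genes tested were called lower and 19.0% higher, in the same fit with genotype. The members' median log2 fold, male against female, was −0.30 beside −0.03 over all genes. This comparison depends on scaling: on RPKM values without TMM factors the all-gene median moved to −0.13, the split of all genes to 1920 higher and 5880 lower and that of the members to 2 and 17.

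Lower in males were 5 of 8 fibrillar genes. Col5a2, which pairs with Col5a1 in the core of type I fibrils, stood at 14.3 through 17.8 to 21.2 CPM in 9 males and 19.5 through 30.2 to 34.4 CPM in 9 females. Within each genotype all 3 males were below all 3 females, and 8 of 9 males were below the lowest female. Its log2 fold was −0.71 ± 0.09 (adjusted p = 1.48e-06). Col1a2 was at −0.46 ± 0.09 (adjusted p = 0.000655), Col3a1 at −0.48 ± 0.14 (adjusted p = 0.0101), Col5a1 at −0.61 ± 0.11 (adjusted p = 0.000121) and Col1a1 at −0.42 ± 0.15 (adjusted p = 0.0356). Col15a1 was also lower in males (41.2 ± 8.8 CPM against 53.2 ± 11 CPM, SD, n = 9 each; log2 fold −0.37 ± 0.09, adjusted p = 0.00180).

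Col16a1, a FACIT chain, stood at 6.55 through 7.80 to 10.3 CPM in males and 9.82 through 13.7 to 20.9 CPM in females (log2 fold −0.86 ± 0.11, adjusted p = 3.57e-06). Col17a1, a collagen of epithelial hemidesmosomes, was scarce in both sexes, at 0.0184 through 0.134 to 0.593 CPM in males and 0.202 through 0.568 to 1.99 CPM in females (log2 fold −2.17 ± 0.46, adjusted p = 0.000761). The male and female ranges of both overlapped over all genotypes, by 1 male for Col16a1 and 2 for Col17a1. Also lower in males were Col23a1 (−0.71 ± 0.10), Col4a6 (−0.70 ± 0.20), Col6a3 (−0.66 ± 0.11), Col8a1 (−0.63 ± 0.17), Col26a1 (−0.57 ± 0.22), Col12a1 (−0.37 ± 0.11) and Col14a1 (−0.31 ± 0.11), all as log2 folds with SE. For Col4a6 the difference of mean log2 CPM, male minus female, was −1.24 in wild-type, 0.08 in Dp16 and −0.89 in Dp16 2xIFNRs. Of the calls lower in males, 3 were lost on leaving out single libraries, with edgeR adjusted p of 0.0510 to 0.0833. For Col1a1 these were wild-type replicates 1, 4, 5 or 6, Dp16 2xIFNRs replicate 5 and Dp16 replicates 3, 5 or 6. For Col14a1 they were wild-type replicates 1, 3 or 5, Dp16 2xIFNRs replicates 1, 3 or 5 and Dp16 replicates 4 or 6. For Col26a1 they were wild-type replicates 4, 5 or 6, Dp16 2xIFNRs replicates 3, 4, 5 or 6 and Dp16 replicates 2 or 5.

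Higher in males were Col6a6, Col19a1, Col6a5 and Col4a4. Col6a6 stood at 2.10 through 6.17 to 9.44 CPM in males and 0.285 through 0.516 to 0.955 CPM in females, with no overlap (log2 fold 3.38 ± 0.25, 10.4-fold, adjusted p = 8.41e-10). Its neighbours on the minus strand of chromosome 9, Col6a5 (105856078 to 105960643) and Col6a4 (105989454 to 106096783), follow Col6a6 (105687809 to 105828160) and encode similar chains. Col6a5 had a log2 fold of 0.87 ± 0.26 (adjusted p = 0.0119), with ranges that overlapped, and on RPKM with limma 0.39 (limma adjusted p = 0.0553). The limma values add 0.1 before the logarithm, near the Col6a5 mean of 0.135 RPKM, which shrinks its fold. By edgeR Col6a4 had a log2 fold of 0.72 ± 0.32 (adjusted p = 0.0819). Col19a1, a FACIT chain, was at 0.403 through 1.12 to 2.10 CPM in males and 0 through 0.0343 to 0.181 CPM in females, again with no overlap (log2 fold 4.25 ± 0.44, adjusted p = 1.19e-07). How many of all genes separate the sexes with no overlap, as Col6a6 and Col19a1 did, was not computed. No member passed the test of an interaction of sex and genotype, by which 0.0512% of all genes were called.

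**Figure D4:**
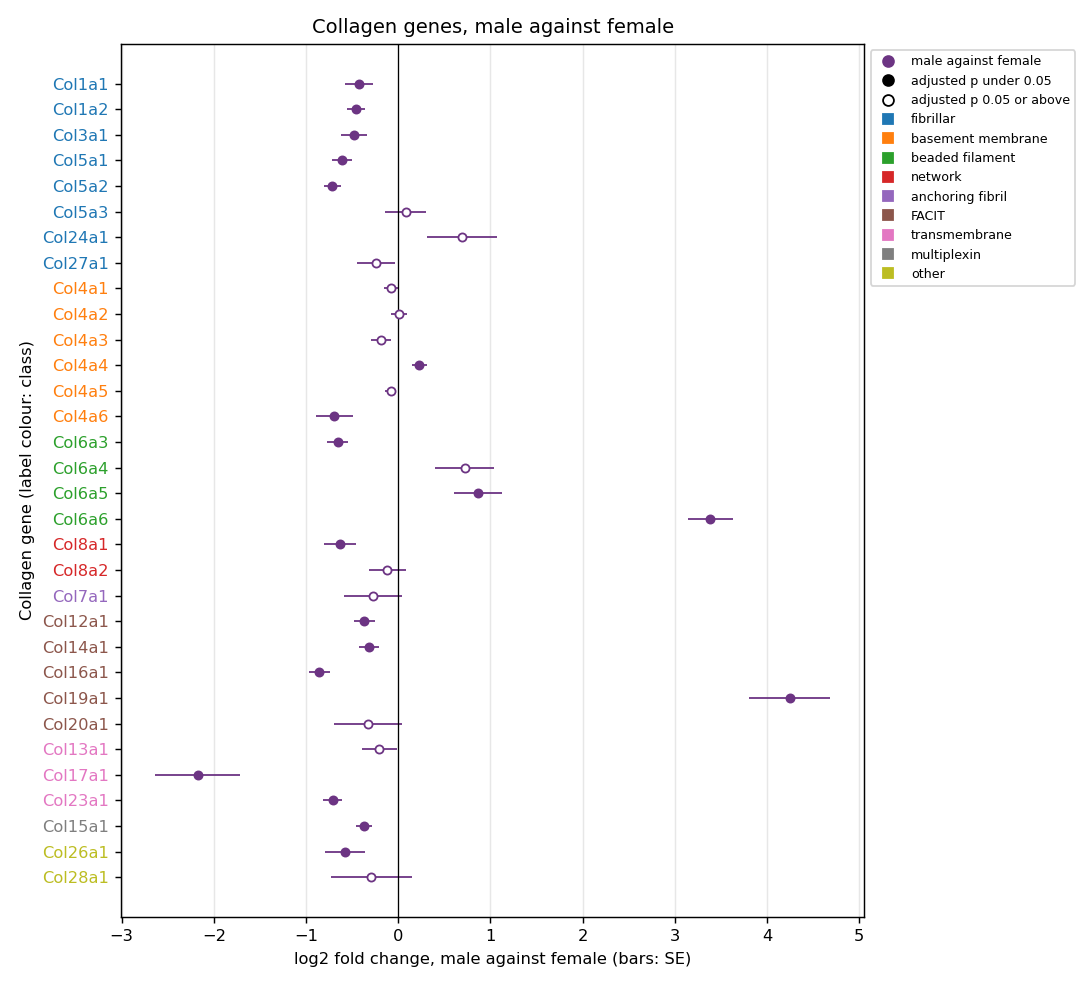
Log2 fold change of males against females (horizontal; bars are SE) of the 32 tested collagen genes in the fit with genotype, labels coloured by class and filled points for an adjusted p under 0.05. Col6a6 and Col19a1 lie above 3, Col17a1 below −2, and the other filled points below 0 lie between −0.9 and −0.3.

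The paired genes Col4a3 and Col4a4, which share the 71-base stretch printed above between their starts, had different balances in the sexes. The RPKM ratio of Col4a3 to Col4a4 was 1.03 ± 0.07 in males (0.966 to 1.18) and 1.37 ± 0.07 in females (1.26 to 1.49; SD, n = 9 each). There was no overlap, over all animals or within any of the 3 genotypes. An exact permutation of sex within genotype gave p = 0.00025, two-sided, the smallest that its 8000 arrangements allow, and 0.00175 after adjustment over 7 chain ratios computed. A ratio shows unequal values and not which gene differs: by CPM, Col4a4 was 1.17-fold higher in males (log2 fold 0.23 ± 0.08, adjusted p = 0.0347), and Col4a3 had a log2 fold of −0.19 ± 0.11 (adjusted p = 0.189). The Col4a4 call was lost with age in the fit (adjusted p = 0.0523), on RPKM with limma (log2 fold 0.11, adjusted p = 0.321) and on leaving out any one of wild-type replicates 2 or 4, Dp16 2xIFNRs replicates 2, 5 or 6, or Dp16 replicates 1, 2, 3 or 6, with edgeR adjusted p of 0.0515 to 0.0684. All 6 podocyte markers measured were lower in males; their part in the ratio was not tested. GENCODE places a transcript on the other strand over part of Col4a3, C430014B12Rik, and the strand setting of the counting is not given in the sources used here.

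**Figure D5:**
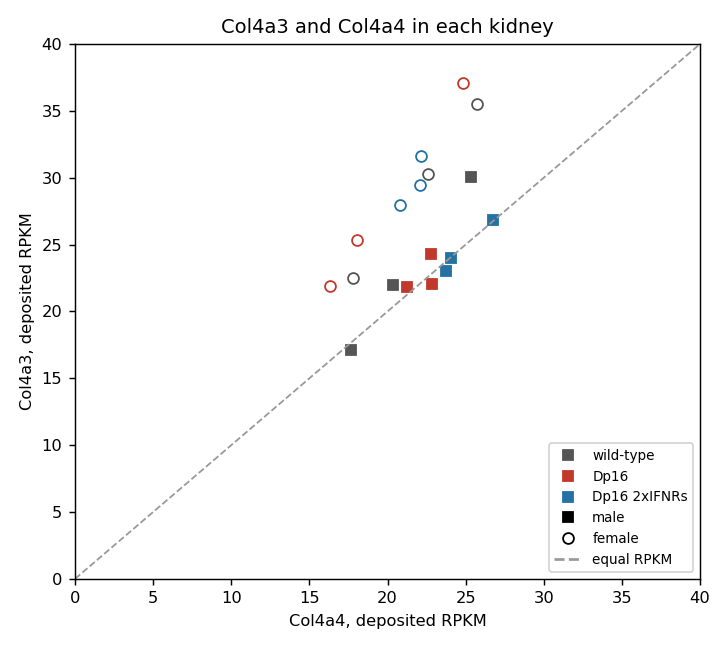
Deposited RPKM of Col4a3 (vertical) against Col4a4 (horizontal) in 18 kidneys, squares male and open circles female, coloured by genotype, with a dashed line of equal RPKM. Males lie close to the line (ratio 0.966 to 1.18) and all females above them (1.26 to 1.49), in each genotype.

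Of the other ratios, that of Col4a6 to Col4a5 was 0.061 ± 0.018 in males and 0.091 ± 0.020 in females (exact permutation, adjusted p = 0.0166). For Col4a1 to Col4a2 the values were 1.44 ± 0.05 and 1.52 ± 0.08 (exact permutation, adjusted p = 0.0416), and for Col4a1 to Col1a1 6.30 ± 1.51 and 4.82 ± 0.86 (exact permutation, adjusted p = 0.0362). The ratios of Col1a1 to Col1a2, Col3a1 to Col1a1 and Col4a5 to Col4a3 did not pass the exact permutation test (adjusted p of 0.810, 0.596 and 0.513).

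Several pairs of collagen chains varied together from animal to animal. After the means of genotype and sex were removed, log2 CPM of Col4a1 and Col4a2 correlated over 18 animals with r = 0.95 and rho = 0.93. For Col4a3 and Col4a4 the values were r = 0.96 and rho = 0.94, and for Col1a1 and Col1a2 r = 0.92 and rho = 0.86. Col1a1 and Col3a1 gave r = 0.93 and rho = 0.92, and Col4a5 and Col4a6 r = 0.87 and rho = 0.80. Without the 2 animals farthest from the median these r were 0.93, 0.95, 0.85, 0.88 and 0.79, and within males or females alone the lowest r was 0.80, for Col1a1 and Col1a2 in females. The other 3 pairs had lower r over all animals: Col1a1 with Col4a1 gave r = 0.57 and rho = 0.53, Col4a1 with Col4a3 r = 0.78 and rho = 0.71, and Col3a1 with Col5a2 r = 0.43 and rho = 0.36. For r the permutation p was 1e-05 in the first 5 pairs, the smallest that 100000 permutations can give, and 0.0134, 0.00017 and 0.0732 in the last 3, in that order. After Benjamini-Hochberg adjustment over the 8 pairs computed these permutation p were 1.6e-05, 0.0153, 0.000227 and 0.0732. For rho the permutation p was at most 0.00011 in the first 5 pairs (adjusted, 0.000176), and 0.0254, 0.00159 and 0.142 in the last 3 (adjusted, 0.0290, 0.00212 and 0.142). Members of a pair share their library, its depth and its makeup of cells.

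Genes that make, bind or break down collagen were taken from lists chosen with earlier results of these data known, and are given as counts with the median log2 fold, which over all genes tested was −0.01 in Dp16 and 0.01 in Dp16 2xIFNRs. The genotype counts of every list below stand against 3.08% of all genes tested higher and 1.01% lower in Dp16. In Dp16 2xIFNRs these shares were 3.15% and 1.58%. The lists were not tested as sets, and none of their counts sets a list apart. Of 21 tested genes of chain modification and folding, 1 was higher and 1 lower in Dp16: Plod2, a lysyl hydroxylase, rose (35.3 CPM in wild-type, 48.6 in Dp16; log2 fold 0.46 ± 0.10, adjusted p = 0.0112), and Mia2, of the collagen export route, fell (log2 fold −0.22 ± 0.05, adjusted p = 0.0177). In Dp16 2xIFNRs 3 of the 21 were higher: Plod2 (0.56 ± 0.10, adjusted p = 0.00244) and the prolyl hydroxylase subunits P4ha2 (0.23 ± 0.06, adjusted p = 0.0300) and P4ha1 (0.27 ± 0.08, adjusted p = 0.0496). The list's medians were 0.13 and 0.10.

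Of 14 tested genes of propeptide processing and crosslinking, 2 were higher in Dp16 and 1 in Dp16 2xIFNRs, with medians of 0.27 in each. Loxl1, a lysyl oxidase relative, rose in both (29.0 CPM in wild-type, 44.8 and 42.9 in the duplicated genotypes; log2 folds 0.62 ± 0.12 and 0.55 ± 0.12, adjusted p = 0.00550 and 0.0108), and Loxl2 in Dp16 (0.37 ± 0.10, adjusted p = 0.0299). Among 13 proteins that bind fibrils (medians 0.25 and 0.23), Bgn (0.53 ± 0.10, adjusted p = 0.00519), Sparc (0.44 ± 0.09, adjusted p = 0.00529) and Dpt (0.79 ± 0.19, adjusted p = 0.0199) rose in Dp16, and Bgn in Dp16 2xIFNRs (0.43 ± 0.10, adjusted p = 0.0217).

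Of 19 tested genes of collagen breakdown and its inhibitors, 4 were higher in each duplicated genotype and 0 lower, with medians of 0.41 and 0.39. None of the Timp inhibitors in this list was called in either genotype. The cathepsin Ctss led in both, from 22.9 CPM in wild-type to 39.6 and 39.3 CPM (log2 folds 0.79 ± 0.13 and 0.78 ± 0.13, adjusted p = 0.00112 and 0.00132). The collagenase Mmp13 also rose in both (0.74 ± 0.20 and 0.71 ± 0.20, adjusted p = 0.0400 and 0.0440), with Ctsk in Dp16 and Mmp12 in Dp16 2xIFNRs among the others called. Of 9 collagen receptors (medians 0.35 and 0.36), Ddr2, a receptor kinase for fibrillar collagen, and Mrc1 rose in both genotypes, Ddr2 by log2 folds of 0.46 ± 0.11 and 0.53 ± 0.11 (adjusted p = 0.0228 and 0.00781), and Itga11 in Dp16 2xIFNRs.

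Partners of type IV collagen were called in 1 of 15 in Dp16 and 2 of 15 in Dp16 2xIFNRs, all higher, with medians of 0.08 and 0.21. Nid1, which ties laminin to type IV collagen, rose from 61.2 CPM to 80.0 and 80.6 CPM (log2 folds 0.40 ± 0.10 and 0.39 ± 0.10, adjusted p = 0.0266 and 0.0269), and Lama2 in Dp16 2xIFNRs (0.50 ± 0.10, adjusted p = 0.00702). Of 19 TGF-beta pathway genes (medians 0.08 and 0.23), Tgfbi and Tgfb1 were higher in Dp16 (0.58 ± 0.14 and 0.37 ± 0.10, adjusted p = 0.0202 and 0.0464) and Ltbp3, Ltbp1 and Tgfbi in Dp16 2xIFNRs. None of these lists had a call between Dp16 2xIFNRs and Dp16. Between the sexes, where 19.7% of all genes tested were lower and 19.0% higher in males with a median log2 fold of −0.03, the lists were as follows. In males 11 of the 21 modification genes were lower and 5 higher, as were 7 and 1 of 14 for crosslinking. For fibril partners the counts were 9 and 1 of 13, and for breakdown and its inhibitors 6 and 1 of 19. For receptors they were 3 and 0 of 9, for basement membrane partners 6 and 2 of 15 and for the TGF-beta pathway 10 and 3 of 19. The lists' median log2 folds, male against female, were −0.13, −0.33, −0.37, −0.18, −0.03, −0.23 and −0.34 in that order. Among the breakdown list's calls were 2 inhibitors, Timp2, lower in males (log2 fold −0.46), and Timp3.

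Markers of cell types moved beside these results; their counts stand against 3.08% of all genes higher in Dp16, 3.15% higher in Dp16 2xIFNRs and 19.7% lower in males. Of 9 fibroblast markers, of which Dcn, Dpt and Lum are also in the list of fibril partners, 3 were higher in Dp16 (Gsn, Dpt and Cd34) and 2 in Dp16 2xIFNRs (Cd34 and Gsn), and their summed level was 265 to 475 CPM in wild-type, 427 to 627 in Dp16 and 336 to 608 in Dp16 2xIFNRs. Within the fibroblast sum Gsn alone averaged 215 CPM in wild-type, 296 in Dp16 and 280 in Dp16 2xIFNRs. Pdgfra, Dcn, Lum, Cygb, Meox1 and Pi16 were called in neither duplicated genotype. Macrophage markers were higher in 6 of 8 in each duplicated genotype, with sums of 162 to 222, 247 to 294 and 230 to 307 CPM. Pericyte, mesangial and smooth muscle markers were higher in 2 of 10 in Dp16 (Ren1 and Rgs5) and 1 in Dp16 2xIFNRs (Ren1), with sums of 402 to 606, 509 to 787 and 422 to 689 CPM. Podocyte markers, beside the glomerular chains, were higher in 1 and lower in 1 of 6 in Dp16 and higher in 2 in Dp16 2xIFNRs, and endothelial markers in 0 of 8. In males 7 of 9 fibroblast, 10 of 10 pericyte, 6 of 6 podocyte and 7 of 8 endothelial markers were lower, and their fibroblast sum was 265 to 482 CPM against 378 to 627 CPM in females. The part of these markers in the collagen differences was not tested. Proximal tubule markers had 2 of 6 higher and 3 lower in males and distal nephron markers 4 of 6 lower. Of the distal nephron list Calb1 was higher in Dp16 (log2 fold 0.38 ± 0.09, adjusted p = 0.0170) and in Dp16 2xIFNRs (0.40 ± 0.09, adjusted p = 0.0108). The lists for urothelium, fat and cartilage had between 0 and 2 calls in any comparison.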

How the data were processed

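PolyA RNA of 18 kidneys was sequenced as strand-specific paired reads, per the labels' protocols. The deposited files hold raw read counts and RPKM values per gene for GENCODE vM24 genes, per the file headers. HISAT2 2.1.0, SAMtools 1.5, HTSeq 0.6.1, FastQC 0.11.5 and build GRCm38 are named in the submitters' processing notes. The deposited RPKM values divide counts by 1 length per gene (11514 of 11514 genes checked, tolerance 0.1%) and carry no TMM factor.

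Counts were fitted with edgeR 4.0.16 (R 4.3.3): TMM factors, filterByExpr by genotype (minimum count 10, minimum total 15; 17575 of 55385 genes kept), a quasi-likelihood fit (robust) of genotype and sex over all 18 libraries, and Benjamini-Hochberg adjustment over all genes tested with a threshold of 0.05. CPM use TMM-scaled library sizes. Checks used DESeq2 1.42.0 and limma 3.58.1, the latter on log2(RPKM + 0.1). The fit was tested on simulated data. Adjusted p-values in the text are edgeR's unless another test is named. The biological coefficient of variation was 16.8%. No 2 libraries of a group were alike within sampling noise (lowest chi-square per degree of freedom 19.9 in 45 pairs).

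Members and gene lists were chosen with earlier results of these data known. Named with values were all members called, all type IV genes, the 3 most abundant of each larger class and the classes of 1 or 2 members; the other members were given by name and range, and the folds of Col5a3 and Col6a4 were added after their values were seen. From each related list up to 3 called genes per comparison were named, those of smallest p. The 7 chain ratios and their tests were added after the design was fixed. Positions come from GENCODE M21 and promoter sequences from RefSeq, both GRCm38; the 9 members with no promoter sequence in the table used are not shown. Counts overlapping other genes were used as deposited. Library totals were 42157790 to 57814587 counts.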

Additional observations from a re-analysis of the deposited data

Results flagged for a closer look

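In 81 groups of 6 kidneys (27 members by 3 genotypes, log2 CPM) 5 values stood apart from the rest of their group. The rule is set to flag about 1 in 20 groups when the 6 values come from a single population. Here each group mixed 3 males and 3 females and the members share libraries, so the rate expected by chance is not known. The highest value stood apart for Col4a3 in the Dp16 female replicate 4, at 297 CPM with the next at 212 CPM, and for Col8a1 in the Dp16 2xIFNRs female replicate 4, at 19.5 CPM with the next at 10.6 CPM. The lowest value stood apart for Col7a1 and Col13a1 in the Dp16 2xIFNRs male replicate 3, at 0.203 and 0.939 CPM with the next at 0.315 and 1.72 CPM. Col26a1 in the Dp16 male replicate 5 was lowest, at 0.886 CPM with the next at 2.00 CPM. For each of these the gap to the nearest animal exceeded 0.625 of the group's range.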

How the results depend on the processing

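Col15a1 was called in both duplicated genotypes in 28 of 29 alternatives each, all but the fit without sex (log2 folds 0.42 to 0.55 and 0.44 to 0.58). The count of members higher in Dp16 (2) became 1 with RLE size factors, without a low-count filter, with age in the fit and with the replicate block, 0 without sex in the fit and 4 with DESeq2. The count higher in Dp16 2xIFNRs (2) became 1 with RLE factors, no filter, age, limma on RPKM and the voom fit blocked on the last number of the sample description, 0 without sex and 3 with DESeq2. Leaving out single libraries gave 1 to 3 and 1 to 4. The count lower (0 in each) became 1, Col27a1, in both genotypes with a mean log2 CPM of at least 1, the replicate block, DESeq2, the voom block and the fit without the robust option (added after seeing the data), in Dp16 also with only the 2 groups fitted and in Dp16 2xIFNRs also with limma on RPKM; single libraries left out gave 0 to 1. Members higher in males (4) became 2 with the mean log2 CPM filter, which left Col19a1 and Col6a5 untested. They also became 2 with limma on RPKM, where Col4a4 and Col6a5 did not pass. Single libraries left out gave 3 to 5 higher and 12 to 15 lower. Dp16 2xIFNRs against Dp16 stayed at 0 in every alternative run, and no log2 fold of a called member changed sign. Residuals of same-numbered samples correlated at r −0.17 to 0.20 over 18 pairs, 7 of them over 0.1. Of 18 samples 7 were closest to one of their own number, and the count that chance would give was not computed. These values do not settle whether the numbers pair animals. The labels do not say so, and the main fit had no block on them. With the replicate block 1 member was higher and 1 lower in Dp16, and over all genes 632 were higher and 287 lower. The male-against-female calls of Col6a5 (adjusted p = 0.203), Col8a1 (0.325), Col12a1 (0.0551) and Col14a1 (0.0746) were lost with this block. Over all genes the counts in Dp16 were 542 higher and 178 lower, 796 and 404 with DESeq2, and 170 and 18 without sex in the fit. The 9 members that were not tested had at most 18 reads in any library.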

Other observations

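The sex difference of the collagen genes stood beside large differences in some genes that process collagen. The whole lists differed less: of 21 modification genes 11 were lower and 5 higher in males, with a median log2 fold of −0.13. Of 14 crosslinking genes 7 were lower and 1 higher, with a median of −0.33. Pcolce2, an enhancer of propeptide removal, had a log2 fold, male against female, of −2.11 ± 0.12 (SE, edgeR adjusted p = 1.02e-11), with 2.98 ± 0.57 CPM in males (SD, n = 9). Bmp1, the propeptide protease that it assists, was at 7.64 ± 0.84 CPM in males and 15.6 ± 2.6 CPM in females (SD, n = 9 each; log2 fold −1.03 ± 0.09, adjusted p = 1.93e-08). The prolyl 3-hydroxylase P3h2 was at 154 ± 9.2 and 281 ± 31 CPM (log2 fold −0.86 ± 0.06, adjusted p = 1.55e-10), and P3h4, a partner of collagen lysyl hydroxylation, at 5.74 ± 0.66 and 12.0 ± 1.1 CPM (log2 fold −1.07 ± 0.07, adjusted p = 1.28e-10). For these 4 genes all 9 males were below all 9 females. The genes named here and in the next paragraph are among the 3 of smallest p in their lists, a choice that favours such separation. The share of all genes with no overlap between the sexes was not computed.

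Among matrix partners Comp, which binds fibrillar collagen, was at 0.673 ± 0.25 CPM in males and 3.38 ± 0.58 CPM in females (log2 fold −2.34 ± 0.18, adjusted p = 7.59e-10), and the growth factor Tgfb2 at 2.56 ± 0.66 and 12.2 ± 2.7 CPM (log2 fold −2.25 ± 0.16, adjusted p = 3.33e-10), with no overlap for either. Fn1, fibronectin, was at 36.2 ± 8.0 and 71.1 ± 19 CPM (log2 fold −0.98 ± 0.16, adjusted p = 0.000117). In the opposite direction the laminin chain Lama3 was at 30.8 ± 4.0 CPM in males and 13.8 ± 3.4 CPM in females (log2 fold 1.17 ± 0.12, adjusted p = 1.00e-07), and Mia3, of the collagen export route, at 75.2 ± 4.5 and 52.1 ± 3.4 CPM (log2 fold 0.53 ± 0.05, adjusted p = 8.80e-09), again with no overlap.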
